A study of Mus musculus with 26 samples.

Results

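Gata1-expressing pre-granulocyte-macrophage progenitors (PreGM GFP+, 3 arrays) were set against reporter-negative haematopoietic stem cells (HSC GFP-, 3 arrays), to see which genes appear on the way to these myeloid progenitors and which the stem cells already carried. These 6 of the 26 arrays of the study were chosen by their sample titles, and all 19938 genes named by a probe set of their own were compared. The PreGM GFP+ cells were lineage-negative and cKit+, lacked Sca1, CD41, FcgRII/III, CD150 and CD105, and were Gata1EGFP+. The HSC GFP- cells were lineage-negative, cKit+, Sca1+ and CD150+, lacked Flt3, and were Gata1EGFP-. All cells came from the bone marrow of Gata1-EGFP Tg/+ mice of 8 to 15 weeks, so both groups carry the reporter transgene. A reporter of this kind marks activity of the Gata1 sequences it holds, and the labels do not give their extent. The other groups, which enter the shared estimate of spread and are cited for their levels, were LMPP (4 arrays), PreGM GFP- (3), PreMegE (3), GMP GFP- (4), GMP GFP+ (3) and CLP (3). The labels do not say whether replicate arrays came from separate mice or pools, so the p-values measure the spread between these arrays, which may be technical.

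Gata1 is the zinc finger transcription factor that erythroid cells, megakaryocytes, mast cells and eosinophils depend on. It binds DNA at GATA sequences together with partners such as Fog1 (Zfpm1), Tal1, Lmo2 and Ldb1. Stem cells use its relative Gata2, with Hlf, Mecom, Meis1 and the HOX proteins, to stay undifferentiated. Surface gates separate progenitors with granulocyte and macrophage potential from those with erythroid and megakaryocyte potential.

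Values are log2 signals, so a difference of 1 log2 unit is a 2-fold ratio. The median of all deposited values, 6.61, served as the level above which a gene was taken as present, since the files hold no background measure. Some probe sets lay above it at much the same level in all 8 groups, as did that of the T cell gene Cd3e with means of 7.18 to 7.41, so a signal above it does not show expression. Present is used below only for a signal above 6.61, and a fold is a ratio of signals. Where a group mean lay under it, a difference is given as a log2 difference in signal and not as a fold. In RNA from bulk sorted cells, fewer cells of a type and less RNA per cell cannot be told apart. The median difference over all genes was 0.01. HSC GFP- array 1 stood furthest from its group, with a root mean square residual of 0.287 log2 units, where the other 5 arrays had 0.177 to 0.230. The mean of 3 Y-linked genes was 7.18, 6.09 and 7.57 on PreGM GFP+ arrays 1 to 3, against 6.15, 7.66 and 7.07 on HSC GFP- arrays 1 to 3. PreGM GFP+ array 2 and HSC GFP- array 1 were thus low in Y-linked signal, 1 array in each group.

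The sort could be checked on its own antigens, whose differences describe the gates and are no findings. Slamf1, which encodes CD150, gave 5.78, 5.98 and 5.78 in PreGM GFP+ cells, against 7.38, 6.87 and 7.21 in HSC GFP- cells. Its arrays did not overlap, and the stem cells were the CD150 group, as gated. Eng, which encodes CD105, was lower in PreGM GFP+ cells by a log2 difference of -0.83 (adjusted p = 0.026), but the call ended without any 1 array other than HSC GFP- array 3 (adjusted p 0.0613 to 0.175). Flt3 was part of the HSC GFP- gate but not of the PreGM GFP+ gate. It gave 6.78, 6.03 and 6.22 in PreGM GFP+ cells, against 7.80, 7.99 and 8.76 in HSC GFP- cells, although HSC GFP- cells were sorted as Flt3 negative. The HSC GFP- mean of 8.18 lay below those of LMPP (11.44), CLP (11.13) and PreGM GFP- cells (10.02). It lay above those of GMP GFP- (7.34), PreMegE (6.95) and GMP GFP+ cells (6.63). Itga2b, which encodes CD41, was higher in PreGM GFP+ cells, sorted as CD41 negative, with 8.53, 8.50 and 8.84 in PreGM GFP+ cells, against 8.32, 7.76 and 7.68 in HSC GFP- cells. That difference of 0.71 (adjusted p = 0.016) lost its call without PreGM GFP+ array 3, HSC GFP- array 2 or HSC GFP- array 3 (adjusted p 0.0811 to 0.0993). Sca1 RNA was not analysed here.

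At an adjusted p under 0.05, 299 genes (1.50% of 19938) were higher and 424 (2.13%) lower in PreGM GFP+ than in HSC GFP- cells. Of these, 134 and 253 differed by at least 1 log2 unit. The differences ranged from -3.97 for Myl10 to 5.84 for Car1. Arrays of the groups did not overlap for 294 of the 299 and 418 of the 424, where 9.22% and 8.69% of all genes were higher or lower without overlap. Genes were then sorted by presence. A gene appeared if it was called higher with all HSC GFP- arrays below 6.61 and all PreGM GFP+ arrays above it. It was lost in the mirror case, and raised or lowered while present if called with all 6 arrays above 6.61. It was kept if it was not called, all 6 arrays lay above 6.61, and the 95% interval of the difference stayed within 1 log2 unit of 0. A kept gene may still differ by less than 1 log2 unit. By these rules an appeared or lost gene cannot overlap between the groups. The 15 largest rises and falls named below were drawn from genes without overlap, so that property adds no evidence for them.

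Presence divided the called genes as follows. Of the 299 higher genes, 207 (69.2%) were raised from a present level and 34 (11.4%) appeared, which is 1.04% and 0.171% of all genes tested. Of the 424 lower genes, 180 (42.5%) stayed present and 85 (20.0%) were lost, 0.903% and 0.426% of all genes. A further 7398 genes (37.1%) were kept, of 9127 with all 6 arrays above 6.61. Most genes present on all 6 arrays were thus kept, so a count of kept genes in a list is no finding by itself. The level taken as present moves this split: with a level 1 log2 unit higher, 54 genes appeared and 113 were raised from a present level. Without PreGM GFP+ array 2 the counts fell to 178 higher and 269 lower genes, and without HSC GFP- array 3 there were 199 higher genes. From the spread of the 6 arrays alone there were 143 higher and 246 lower genes.

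**Figure D1:**
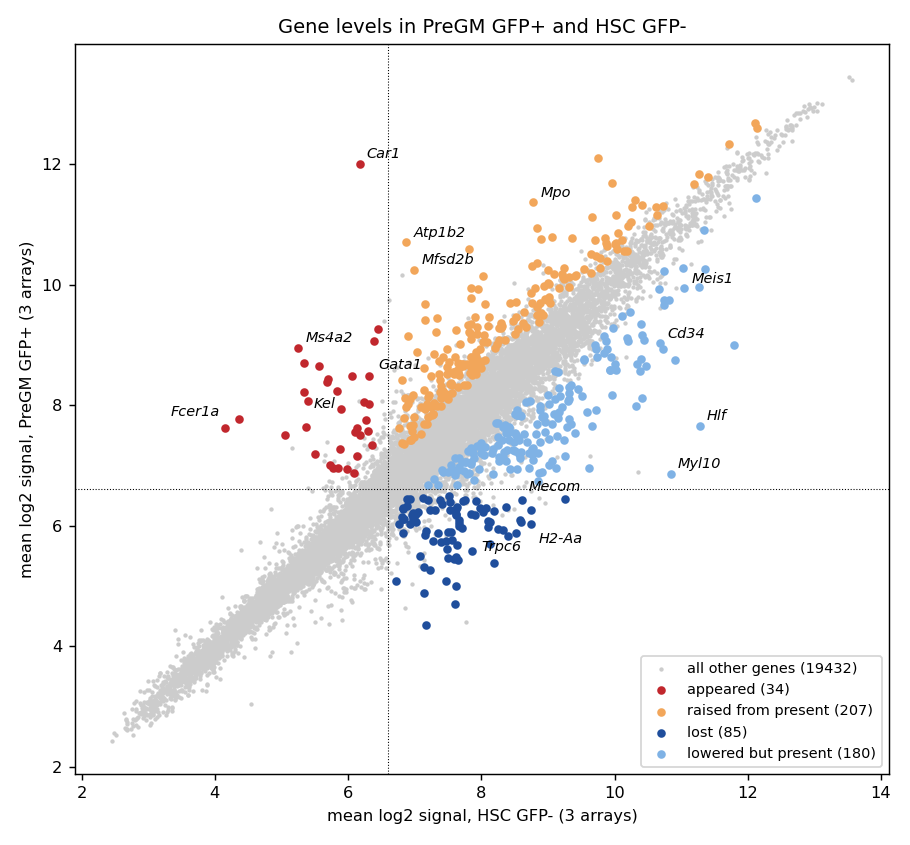
Mean log2 signal of each gene in PreGM GFP+ cells (vertical axis) against HSC GFP- cells (horizontal axis), 3 arrays each; dotted lines mark 6.61, the median of all deposited values. Car1 stands alone at the upper left of the 34 genes that appeared, and the 207 genes raised from a present level lie above the diagonal, to the right of the dotted line.

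Gata1 itself appeared. It gave 8.70, 8.01 and 8.74 in PreGM GFP+ cells, against 6.21, 6.38 and 6.36 in HSC GFP- cells, a log2 difference in signal of 2.17 ± 0.19 (SE, adjusted p = 7.76e-08). The groups were far apart, in the direction set by the reporter gate. Gata2, the GATA factor of stem cells and mast cells, was raised from a present level. It gave 9.39, 9.81 and 9.92 in PreGM GFP+ cells, against 8.90, 8.57 and 8.83 in HSC GFP- cells, 1.92-fold higher (adjusted p = 0.00324). Each PreGM GFP+ array lay above each HSC GFP- array. Gata3, known for its part in T cells and in stem cell cycling, was lower by a log2 difference in signal of -0.91 (adjusted p = 0.00334), at 6.02 ± 0.04 in PreGM GFP+ cells and 6.94 ± 0.39 in HSC GFP- cells (SD, n = 3 each). Its PreGM GFP+ arrays all lay below the median signal.

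Most partners of Gata1 were present in both groups. Of 20 GATA factors and complex partners, 4 were called higher and 2 lower, and 10 were kept, with a median difference of 0.09. Tal1, the bHLH partner, gave 8.18, 8.08 and 8.08 in PreGM GFP+ cells, against 8.27, 8.23 and 7.94 in HSC GFP- cells, and the interval of the difference was -0.28 to 0.21. Zfpm1, the cofactor Fog1, averaged 8.21 ± 0.30 in PreGM GFP+ cells and 7.93 ± 0.12 in HSC GFP- cells (SD, n = 3 each). These arrays overlapped for both genes. Ldb1, the protein that joins the complex across distant sites, averaged 10.96 ± 0.25 in PreGM GFP+ cells and 10.35 ± 0.15 in HSC GFP- cells, and did not pass the test (adjusted p = 0.0761). Gfi1b, a repressor of the erythroid and megakaryocyte lines, averaged 9.16 ± 0.11 in PreGM GFP+ cells and 8.66 ± 0.20 in HSC GFP- cells (adjusted p = 0.158). Kdm1a, the demethylase it recruits, and Nfe2, the bZIP factor of globin and platelet genes, had differences of -0.16 and 0.04.

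Lmo2, the bridge of the complex, was the partner that fell. It gave 9.63, 9.99 and 10.17 in PreGM GFP+ cells, against 10.77, 10.59 and 10.63 in HSC GFP- cells, 1.66-fold lower (adjusted p = 0.001), and its signal was above the median in both groups. Neither fall, of Lmo2 or of Gata3, was called from the spread of the 6 arrays alone. Lmo4, a relative of Lmo2, was higher, at 9.30, 9.41 and 9.19 in PreGM GFP+ cells against 7.93, 7.64 and 8.23 in HSC GFP- cells, 2.58-fold (adjusted p = 0.00515). Klf1, the erythroid Krüppel-like factor, appeared. It gave 7.62, 7.84 and 7.09 in PreGM GFP+ cells, against 5.93, 6.40 and 6.20 in HSC GFP- cells, a log2 difference in signal of 1.34 ± 0.16 (SE, adjusted p = 7.38e-06). Neither Lmo4 nor Klf1 overlapped between groups.

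Among 45 fate regulators, 5 were called higher and 9 lower (5 from the spread of the 6 arrays alone), with a median difference of 0.05. The fifth of the higher ones, beside the 4 just named, was Bcl11a, the repressor of fetal globin genes, at 10.59 ± 0.15 in PreGM GFP+ cells and 10.04 ± 0.12 in HSC GFP- cells (adjusted p = 0.0241). Its call ended without PreGM GFP+ array 2 or 3 or HSC GFP- array 1 or 3 (adjusted p 0.0692 to 0.137). The ETS factor Erg, which stem cells depend on, fell to 8.97, 9.13 and 9.12 in PreGM GFP+ cells, against 10.09, 10.29 and 10.22 in HSC GFP- cells, 2.19-fold lower (adjusted p = 0.00485). Its relative Fli1, a megakaryocyte regulator, had a difference of -0.63 (adjusted p = 0.0114, and 0.082 without PreGM GFP+ array 1). Spi1 and Cebpa, factors of other myeloid lines, did not pass the test. Spi1, the ETS factor PU.1 of monocytes and lymphocytes, gave 7.38, 7.09 and 6.41 in PreGM GFP+ cells, against 8.53, 7.31 and 6.93 in HSC GFP- cells. Cebpa, the bZIP factor of granulocytes, gave 8.36, 8.65 and 8.08 in PreGM GFP+ cells, against 7.58, 7.55 and 7.82 in HSC GFP- cells (adjusted p = 0.051). Runx1, Myb, Myc, Etv6 and Hhex, regulators shared by stem cells and progenitors, were kept, with differences between -0.52 for Etv6 and 0.53 for Myc. The intervals of Myc (0.15 to 0.91), Myb (0.12 to 0.80) and Etv6 (-0.89 to -0.15) excluded 0, so kept does not mean unchanged.

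**Figure D2:**
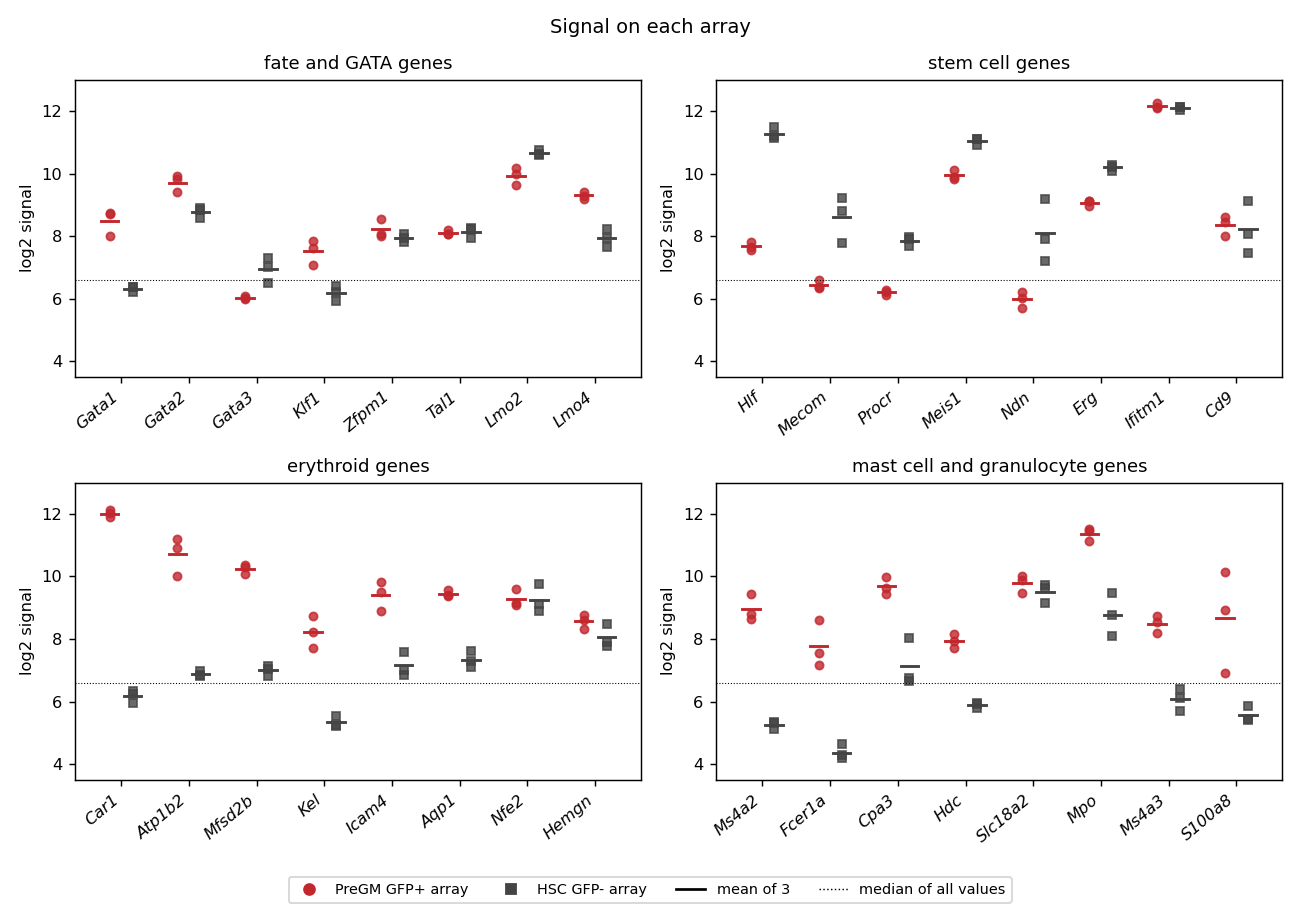
Log2 signal on each of the 3 PreGM GFP+ arrays (circles, left of each pair) and 3 HSC GFP- arrays (squares, right) for 8 genes of each of 4 kinds; bars are means of 3 and the dotted line is 6.61. Car1, Ms4a2, Fcer1a, Kel and Gata1 lie above the line in PreGM GFP+ cells and below it in HSC GFP- cells, while Tal1, Ifitm1, Nfe2 and Slc18a2 overlap between groups.

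Erythroid genes showed the most rises of 33 gene lists. The lists were chosen with earlier results of these data known, so this rank is a description only. Of 31 measured, 13 were called higher and none lower, where 1.50% of all genes were higher, and the median difference was 0.43. Car1, the carbonic anhydrase of early erythroid cells, gave 11.89, 12.02 and 12.12 in PreGM GFP+ cells, against 6.35, 6.23 and 5.94 in HSC GFP- cells. That log2 difference in signal of 5.84 ± 0.33 (SE, adjusted p = 5.73e-11) was the largest of all 19938 genes. Atp1b2, a beta subunit of the sodium pump, gave 11.20, 10.01 and 10.92 in PreGM GFP+ cells, against 6.85, 6.96 and 6.80 in HSC GFP- cells, a log2 difference in signal of 3.84 (adjusted p = 2.22e-11). Mfsd2b, which exports sphingosine-1-phosphate from red cells and platelets, gave 10.08, 10.37 and 10.31 in PreGM GFP+ cells, against 7.03, 7.13 and 6.82 in HSC GFP- cells, a log2 difference in signal of 3.26 (adjusted p = 5.51e-12). The stem cell level of both was close to that of LMPP, CLP, PreGM GFP- and GMP GFP- cells. The means of these groups were 6.74 to 6.80 for Atp1b2 and 6.64 to 6.81 for Mfsd2b. Every PreGM GFP+ array lay above every HSC GFP- array for all 3 genes, as the choice of the largest rises required.

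Kel, the Kell blood group peptidase, appeared, at 8.73, 7.71 and 8.22 in PreGM GFP+ cells against 5.55, 5.26 and 5.21 in HSC GFP- cells (log2 difference in signal 2.88 ± 0.31, SE, adjusted p = 2.09e-06). Rhd, of the Rhesus blood group, also appeared, at 6.88, 7.96 and 7.84 in PreGM GFP+ cells against 5.98, 5.90 and 6.44 in HSC GFP- cells. Its partner Rhag was called higher but lay below the median signal on every array of both groups. Icam4, the adhesion protein of the Landsteiner-Wiener blood group, gave 8.90, 9.84 and 9.52 in PreGM GFP+ cells, against 7.60, 7.02 and 6.85 in HSC GFP- cells, 4.80-fold higher (adjusted p = 0.000504). Ermap, the Scianna blood group protein, was 3.63-fold higher, Aqp1, the water channel, 4.32-fold, and Blvrb, a biliverdin reductase, 2.80-fold. Rhd, Rhag, Ermap, Aqp1 and Blvrb were picked after their values were seen, and 18 of the 31 erythroid genes were not called. Stom, the membrane protein stomatin, which was not in the erythroid list, appeared at 8.98, 9.49 and 9.33 in PreGM GFP+ cells, against 6.48, 6.53 and 6.36 in HSC GFP- cells. The mean of Stom was 9.76 in GMP GFP-, 9.65 in PreMegE and 8.40 in PreGM GFP- cells. Ces2g, a carboxylesterase, appeared at 8.22, 9.54 and 9.46 in PreGM GFP+ cells, against 6.31, 6.50 and 6.34 in HSC GFP- cells. None of the genes given here by array overlapped between the groups, which the rule for appeared genes fixed for all but Icam4.

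The list held 9 kept genes, among them Car2, Nfe2, Hemgn and Gypc. Car2, another carbonic anhydrase, gave 10.23, 10.06 and 10.14 in PreGM GFP+ cells, against 10.40, 10.57 and 10.55 in HSC GFP- cells (interval -0.89 to 0.17). Hemgn, the nuclear protein hemogen, gave 8.31, 8.77 and 8.62 in PreGM GFP+ cells, against 8.47, 7.78 and 7.91 in HSC GFP- cells (interval 0.10 to 0.93). Of these carbonic anhydrases only Car1 was called. Of 20 genes of heme synthesis and iron handling, 4 were called higher and none lower, with a median difference of 0.20. Tfrc, the transferrin receptor, was 2.72-fold higher (adjusted p = 0.000145), and Slc11a2, the iron transporter DMT1, was 2.58-fold higher (adjusted p = 0.000278). Slc40a1, the iron exporter ferroportin, appeared at 7.19, 6.96 and 6.71 in PreGM GFP+ cells, against 5.70, 5.84 and 5.78 in HSC GFP- cells. Urod, an enzyme of heme synthesis, was called higher with a difference of 0.83 (adjusted p = 0.0149), a call lost without PreGM GFP+ array 2 or 3 or HSC GFP- array 1 (adjusted p 0.0564 to 0.0682).

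Mast cell and basophil genes were called higher too. Of 34 measured, 8 were called higher and none lower, 4 of them appeared, and the median difference was 0.15. Without HSC GFP- array 1, and also with arrays weighted by precision, 2 of the list were called lower. The means of 14 of the 34 lay below the median signal in both groups. The receptor for IgE led. Ms4a2, its beta chain, gave 8.80, 9.43 and 8.64 in PreGM GFP+ cells, against 5.30, 5.34 and 5.11 in HSC GFP- cells (log2 difference in signal 3.71 ± 0.28, SE, adjusted p = 1.33e-08). Fcer1a, its alpha chain, gave 7.16, 8.59 and 7.56 in PreGM GFP+ cells, against 4.29, 4.63 and 4.18 in HSC GFP- cells (3.40 ± 0.40, SE, adjusted p = 6.99e-06). Both chains lay below the median signal on every stem cell array and above it on every PreGM GFP+ array, as the rule for appeared genes requires.

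The products of mast cell granules followed in part. Cpa3, the carboxypeptidase of mast cell granules, was raised from a present level, at 9.63, 9.98 and 9.44 in PreGM GFP+ cells against 8.02, 6.76 and 6.67 in HSC GFP- cells, 5.79-fold (adjusted p = 0.00118). Hdc, which makes histamine, appeared at 7.95, 7.72 and 8.17 in PreGM GFP+ cells, against 5.80, 5.96 and 5.93 in HSC GFP- cells. Alox5, which starts leukotriene synthesis, appeared at 6.92, 7.06 and 7.53 in PreGM GFP+ cells, against 6.03, 6.40 and 5.97 in HSC GFP- cells. None of these genes overlapped between groups. Gzmb, the protease granzyme B, was called higher with a log2 difference in signal of 1.28 (adjusted p = 0.00813), but its level was uneven, at 6.41, 6.61 and 8.20 in PreGM GFP+ cells, against 5.87, 5.79 and 5.72 in HSC GFP- cells. Slc18a2, which loads monoamines such as histamine into granules, and Srgn, the core protein of granule proteoglycans, were kept. Slc18a2 gave 9.88, 9.47 and 10.01 in PreGM GFP+ cells, against 9.73, 9.64 and 9.15 in HSC GFP- cells. Srgn gave 11.94, 12.05 and 11.88 in PreGM GFP+ cells, against 12.08, 11.72 and 11.86 in HSC GFP- cells. The transporter and the granule core were thus above the median signal on every stem cell array, where Hdc was below it. From the spread of the 6 arrays alone 5 of the 34 genes were called higher, with the calls of Alox5 and Gzmb among those lost.

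Of 15 eosinophil genes, 2 were called higher and none lower, with a median difference of 0.19. Rnase12, of the ribonuclease family to which eosinophil proteins belong, appeared at 7.37, 7.97 and 7.60 in PreGM GFP+ cells, against 5.63, 5.37 and 5.09 in HSC GFP- cells (adjusted p = 0.00829, and 0.0517 without PreGM GFP+ array 2). Siglecf, the sialic acid receptor of eosinophils, was 1.53-fold higher (adjusted p = 0.00267), at 7.54, 7.51 and 7.65 in PreGM GFP+ cells against 7.02, 6.94 and 6.91 in HSC GFP- cells. The arrays of both genes stood apart. Prg2, the major basic protein of eosinophil granules, gave 8.35, 5.89 and 6.54 in PreGM GFP+ cells, against 5.74, 5.83 and 5.83 in HSC GFP- cells, and did not pass the test (adjusted p = 0.302). Only PreGM GFP+ array 1 was high.

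The promoters of the erythroid, mast cell and stem cell genes with large differences are shown because GATA proteins bind AGATAA and TGATAA. The 100 bases before the RefSeq start (build GRCm38.p6), for genes the RefSeq table holds, were searched for both motifs on both strands (TTATCT and TTATCA are the reverse), and capitals mark a match. The motif and the window were chosen after results were seen, and no test was made.
Ms4a2, chr19:11623720-11623819, minus strand: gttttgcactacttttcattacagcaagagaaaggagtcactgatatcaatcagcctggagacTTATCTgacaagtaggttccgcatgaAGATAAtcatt
Fcer1a, chr1:173227230-173227329, minus strand: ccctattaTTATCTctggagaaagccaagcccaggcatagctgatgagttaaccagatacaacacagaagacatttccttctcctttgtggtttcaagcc
Kel, chr6:41704326-41704425, minus strand: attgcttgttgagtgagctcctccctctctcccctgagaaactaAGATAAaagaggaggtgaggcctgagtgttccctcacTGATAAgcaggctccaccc
Mfsd2b, chr12:4874360-4874459, minus strand: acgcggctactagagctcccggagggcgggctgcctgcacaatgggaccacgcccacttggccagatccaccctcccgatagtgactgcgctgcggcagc
Hlf, chr11:90390918-90391017, minus strand: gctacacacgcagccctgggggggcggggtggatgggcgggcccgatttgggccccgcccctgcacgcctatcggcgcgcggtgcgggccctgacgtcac
Trpc6, chr9:8544042-8544141, plus strand: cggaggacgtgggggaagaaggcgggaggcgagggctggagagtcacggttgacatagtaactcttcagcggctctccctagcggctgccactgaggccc
The first bases of the matches lay 37 and 11 bases before the start in Ms4a2, 92 in Fcer1a, and 56 and 19 in Kel. The promoters of Mfsd2b, Hlf and Trpc6 held no match in this window. Over all genes with a RefSeq promoter, 904 of 15614 (5.79%) held a match. Of the erythroid genes called higher, 7 of 11 held one, namely Klf1, Kel, Rhd, Rhag, Icam4, Ermap and Ces2g. Of the mast cell genes called higher, 3 of 7 did, namely Ms4a2, Fcer1a and Cpa3, and of the stem cell genes called lower, 1 of 17 did, namely Mecom. Genes that appeared held one in 6 of 28 promoters (21.4%), and genes that were lost in 2 of 65. All genes called higher together held one in 8.37%, and in 14.2% over 250 bases, where 15.8% of all promoters did. A match is only a description of these letters.

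Neutrophil granule genes moved in both directions. Of 31, 5 were called higher and 2 lower, with a median difference of 0.19. Mpo, the myeloperoxidase of the first granules to form, gave 11.13, 11.45 and 11.52 in PreGM GFP+ cells, against 9.47, 8.10 and 8.75 in HSC GFP- cells, 6.02-fold higher (adjusted p = 5.36e-07). Its arrays lay above the median signal in both groups. Cst7, the cathepsin inhibitor cystatin F, gave 10.45, 10.13 and 9.92 in PreGM GFP+ cells, against 5.82, 7.40 and 7.21 in HSC GFP- cells, and was 10.3-fold higher (adjusted p = 5.72e-08). Ms4a3, a membrane protein of early granulocyte progenitors, appeared at 8.53, 8.75 and 8.19 in PreGM GFP+ cells, against 6.39, 5.70 and 6.11 in HSC GFP- cells. These 3 genes did not overlap between groups. Csf3r, the receptor for G-CSF, fell to 6.90, 6.92 and 7.01 in PreGM GFP+ cells, against 8.56, 8.28 and 8.75 in HSC GFP- cells. The log2 difference in signal was -1.59 (adjusted p = 4e-07). Its PreGM GFP+ mean of 6.94 was close to those of PreMegE (6.91), GMP GFP+ (6.93) and CLP (7.07). Elane, neutrophil elastase, was near the median signal in both groups, at 6.62 ± 0.32 in PreGM GFP+ cells and 6.34 ± 0.19 in HSC GFP- cells.

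S100a8, a calprotectin subunit, met the rule for genes that appeared, at 6.90, 8.94 and 10.14 in PreGM GFP+ cells against 5.86, 5.44 and 5.40 in HSC GFP- cells (adjusted p = 0.00365). S100a9, its partner, gave 7.08, 10.07 and 11.03 in PreGM GFP+ cells, against 6.19, 7.25 and 6.16 in HSC GFP- cells (adjusted p = 0.0647), and Ngp, a granule protein of late precursors, 6.31, 8.39 and 9.52 in PreGM GFP+ cells against 6.44, 6.43 and 5.64 in HSC GFP- cells (adjusted p = 0.284). PreGM GFP+ array 1 was the low one in all 3 genes. The mean of the whole list was 6.75, 7.24 and 7.43 on PreGM GFP+ arrays 1 to 3, against 6.74, 6.57 and 6.54 on HSC GFP- arrays 1 to 3. The part of mature neutrophil RNA in the calls of this list was not tested. From the spread of the 6 arrays alone 3 of the 31 genes were called higher, with the call of S100a8 among those lost.

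Platelet genes were split. Of 27 megakaryocyte and platelet genes, 3 were called higher and 6 lower, with a median difference of -0.05. The rises include Itga2b, which encodes the gate antigen CD41 and is described with the sort above. F2r, the thrombin receptor, was higher, at 9.57, 9.76 and 9.83 in PreGM GFP+ cells, against 8.56, 8.23 and 8.78 in HSC GFP- cells, 2.29-fold (adjusted p = 2.55e-05). Gp5, a subunit of the von Willebrand factor receptor, gave 7.93, 8.99 and 7.85 in PreGM GFP+ cells, against 6.86, 7.39 and 7.19 in HSC GFP- cells (adjusted p = 0.029). Its call was lost without PreGM GFP+ array 2 or HSC GFP- array 1 or 3 (adjusted p 0.0689 to 0.233), and without HSC GFP- array 3 the list held 1 higher gene. Gucy1a1, a subunit of the nitric oxide receptor, fell by 1.40 log2 units of signal, to 6.24, 6.36 and 6.83 in PreGM GFP+ cells, against 8.42, 7.50 and 7.71 in HSC GFP- cells. From the spread of the 6 arrays alone, none of the 6 falls was called. Pf4, platelet factor 4, was spread in both groups, at 6.40 ± 0.87 in PreGM GFP+ cells and 6.78 ± 0.80 in HSC GFP- cells. Gp9, another subunit of the same receptor as Gp5, and Vwf, its ligand, were not called, with differences of 0.01 and -0.18.

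Stem cell genes gave the most falls of any list, a rank with the same limit from the choice of lists. Of 39 measured, 21 were called lower and none higher, where 2.13% of all genes were lower, and the median difference was -0.79. From the spread of the 6 arrays alone 11 were. Hlf, a bZIP factor of self-renewing stem cells, gave 7.82, 7.54 and 7.64 in PreGM GFP+ cells, against 11.50, 11.20 and 11.14 in HSC GFP- cells, a log2 difference in signal of -3.61 (adjusted p = 6.35e-12). Its PreGM GFP+ mean of 7.67 was close to those of GMP GFP- cells (7.63), GMP GFP+ cells (7.53) and CLP (7.46). Mecom, the zinc finger factor Evi1, was lost, at 6.58, 6.35 and 6.38 in PreGM GFP+ cells against 7.79, 8.81 and 9.23 in HSC GFP- cells (log2 difference in signal -2.17 ± 0.27, SE, adjusted p = 1.46e-05). Procr, the protein C receptor used to isolate stem cells, was lost at 6.27, 6.20 and 6.12 in PreGM GFP+ cells, against 7.68, 7.97 and 7.90 in HSC GFP- cells. The groups stood apart for all 3 genes.

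Further falls covered several functions. Ndn, necdin, a restraint on stem cell cycling, was lost at 6.01, 6.21 and 5.71 in PreGM GFP+ cells, against 9.18, 7.21 and 7.91 in HSC GFP- cells, but was not called from the spread of the 6 arrays alone (adjusted p = 0.0741). Trpc6, a cation channel, was lost at 6.07, 5.68 and 6.06 in PreGM GFP+ cells, against 8.53, 8.57 and 7.90 in HSC GFP- cells. Mllt3, a chromatin reader that maintains stem cells, was 3.13-fold lower, at 8.77, 8.41 and 8.90 in PreGM GFP+ cells against 9.97, 10.53 and 10.53 in HSC GFP- cells (adjusted p = 1.68e-05). It stayed present, as did Rbpms, an RNA-binding protein, at 3.16-fold lower (adjusted p = 4.39e-06). Tie1, a receptor kinase of the angiopoietin pathway, was lower by a log2 difference in signal of -1.03 (adjusted p = 7.07e-06). Its PreGM GFP+ mean of 6.94 lay within the 6.70 to 7.02 of the groups other than HSC GFP-. Angpt1, the ligand of its relative Tie2, had a difference of -0.79 that did not pass the test (adjusted p = 0.235). Not all genes of the list fell. Ifitm1, a membrane protein of the interferon-induced family, gave 12.25, 12.11 and 12.12 in PreGM GFP+ cells, against 12.13, 12.14 and 12.02 in HSC GFP- cells (interval -0.33 to 0.46). Cd81 and Cd9, tetraspanins of stem cells, were kept too, with differences of -0.45 and 0.14.

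Of 21 HOX genes and cofactors, 6 were called lower and none higher, with a median difference of -0.37. Meis1, a cofactor of HOX proteins, gave 9.88, 9.82 and 10.12 in PreGM GFP+ cells, against 10.91, 11.11 and 11.11 in HSC GFP- cells, 2.15-fold lower (adjusted p = 0.0135). Its groups did not overlap, and it stayed present. The call was nonetheless lost without PreGM GFP+ array 1 or 2 or HSC GFP- array 2 or 3 (adjusted p 0.0507 to 0.0673). Hoxa6 fell by 0.73 log2 units of signal (adjusted p = 0.00415), at 6.57 ± 0.19 in PreGM GFP+ cells and 7.30 ± 0.07 in HSC GFP- cells. Hoxa9, the HOX gene of early myeloid growth, gave 7.99, 7.56 and 7.98 in PreGM GFP+ cells, against 8.41, 8.52 and 8.68 in HSC GFP- cells (adjusted p = 0.0454), and its call was lost without any 1 of the 6 arrays (adjusted p 0.0641 to 0.254). Hoxa4, Hoxb3 and Hoxa7 were kept, with differences of -0.23, -0.25 and -0.37, though the Hoxa7 interval (-0.64 to -0.09) excluded 0. Leaving out PreGM GFP+ array 3, HSC GFP- array 2 or HSC GFP- array 3 left 3 calls in the list, and the spread of the 6 arrays alone left 2.

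Most restraints of the cell cycle were kept, as were most genes present in both groups. Of 21 quiescence genes, Ndn was the only one called (none from the spread of the 6 arrays alone, 2 without HSC GFP- array 2), and 13 were kept, among them Foxo3, the stress-responsive forkhead factor, at 8.26 ± 0.10 in PreGM GFP+ cells and 8.22 ± 0.04 in HSC GFP- cells, and the pocket protein gene Rbl2, with a difference of -0.49. The Rbl2 interval, -0.82 to -0.15, excluded 0. Of 24 genes of self-renewal signalling, 4 were called lower and none higher, with a median difference of -0.10. Il6st, the shared receptor chain gp130, gave 6.88, 7.50 and 6.90 in PreGM GFP+ cells, against 8.88, 8.54 and 8.92 in HSC GFP- cells, 3.21-fold lower (adjusted p = 0.00261). The groups stood apart by more than 1 log2 unit. The list held 2 falls, not 4, without PreGM GFP+ array 1, HSC GFP- array 1 or HSC GFP- array 2. Cxcr4, the receptor that holds cells in the marrow, was kept, at 11.03, 10.87 and 11.05 in PreGM GFP+ cells against 11.37, 10.98 and 10.99 in HSC GFP- cells.

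**Figure D3:**
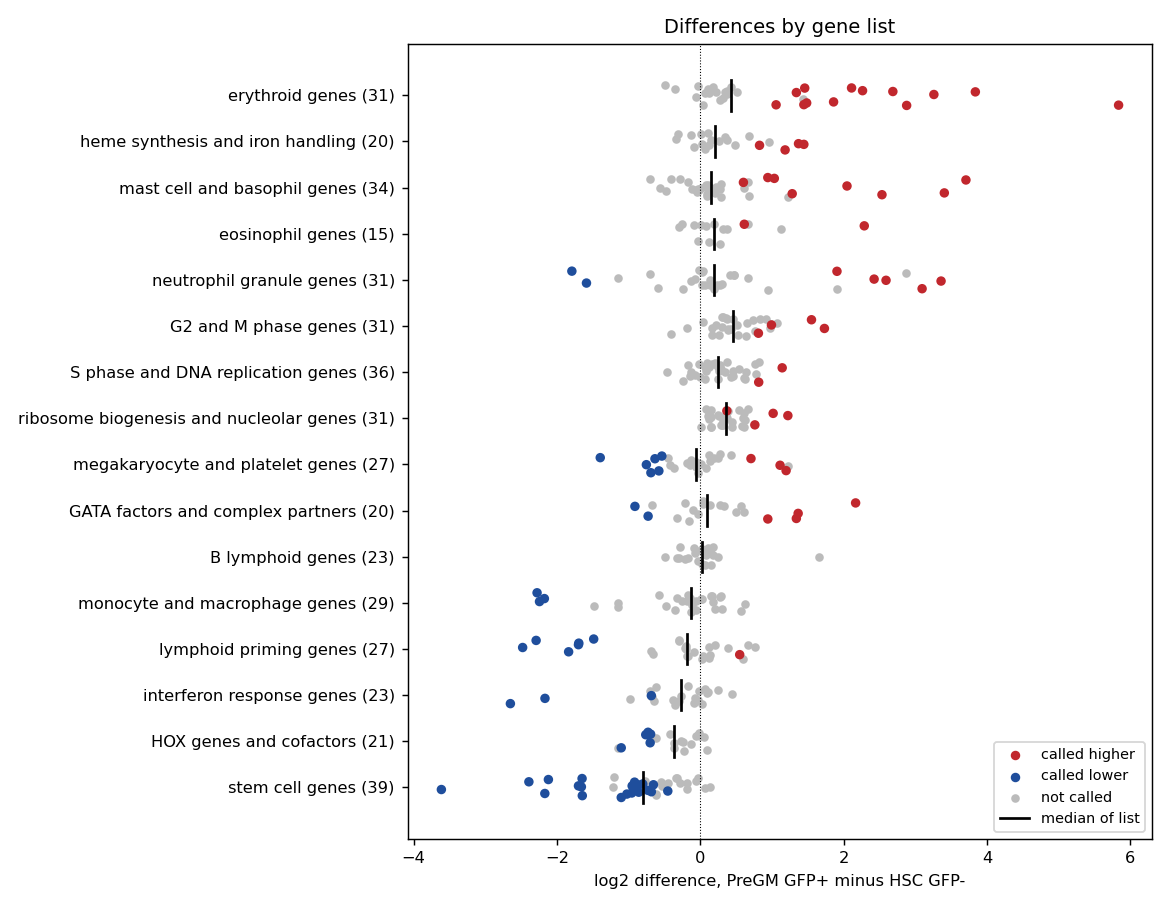
Log2 difference, PreGM GFP+ minus HSC GFP-, of each measured gene (dots) of 16 lists, with list size in brackets; red dots were called higher, blue dots lower, grey dots not called, and black bars are list medians. Stem cell genes have a median of -0.79 and erythroid genes of 0.43, while B lymphoid genes sit at 0.03 with no call.

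Genes of lymphoid, monocyte and dendritic cells gave falls and few rises. Of 27 lymphoid priming genes, 6 were called lower and 1 higher (Bcl11a, whose call is lost without 1 of 4 arrays, as given above), with a median difference of -0.18. The falls include Flt3, part of the HSC GFP- gate and described with the sort above. Gimap6, a GTPase of lymphocytes, gave 7.87, 8.23 and 8.26 in PreGM GFP+ cells, against 9.90, 10.56 and 10.79 in HSC GFP- cells, 4.90-fold lower (adjusted p = 8.15e-05). Lsp1, an actin-binding protein of leukocytes, was 3.24-fold lower (adjusted p = 0.00195). Emb, the adhesion protein embigin, was called lower with a wide spread, at 6.13, 8.81 and 6.54 in PreGM GFP+ cells against 9.87, 9.31 and 9.75 in HSC GFP- cells (adjusted p = 0.00259), and was not called from the spread of the 6 arrays alone (adjusted p = 0.135). Of 23 B lymphoid genes limma called none, and 1 had an unadjusted p under 0.05. Dntt, terminal transferase, was below the median signal on every array of both groups.

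Of 29 monocyte and macrophage genes, 3 were called lower and none higher, with a median difference of -0.12. Tlr4, the receptor for bacterial lipopolysaccharide, was lost, at 4.89 ± 0.26 in PreGM GFP+ cells and 7.13 ± 0.31 in HSC GFP- cells (adjusted p = 4.52e-05). Ctss, the protease cathepsin S, gave 6.50, 6.56 and 7.08 in PreGM GFP+ cells, against 9.09, 8.73 and 8.85 in HSC GFP- cells, 4.52-fold lower (adjusted p = 2.35e-05). Of 20 dendritic cell genes, 3 were lower (1 from the spread of the 6 arrays alone) and none higher, with a median difference of -0.04. Flt3, part of the HSC GFP- gate, is among these falls too. H2-Aa, an alpha chain of MHC class II, was lost, at 5.81, 5.96 and 6.31 in PreGM GFP+ cells against 9.99, 7.64 and 8.63 in HSC GFP- cells, but was not called from the spread of the 6 arrays alone (adjusted p = 0.0559). The stem cell arrays differed among themselves by more than 2 log2 units here. Its partner chain H2-Ab1 had a difference of -1.10 (adjusted p = 0.0228), lost as a call without PreGM GFP+ array 1 or 2 or HSC GFP- array 1 or 3 (adjusted p 0.0568 to 0.133). Of 25 T and NK genes, Nkg7, a granule protein of cytotoxic cells, was the 1 called higher, at 9.50, 10.40 and 9.93 in PreGM GFP+ cells against 8.36, 7.59 and 7.60 in HSC GFP- cells, 4.27-fold (adjusted p = 0.00188). The list also held 2 falls, of Gata3 and of Cd27, a costimulatory receptor, with a log2 difference of -1.06. It held 1 fall without PreGM GFP+ array 1 or 3 or HSC GFP- array 1, and 1 from the spread of the 6 arrays alone.

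Interferon and antigen presentation genes were lower where they were called. Of 23 interferon response genes, 3 were called lower and none higher, with a median difference of -0.27. Iigp1, an interferon-induced GTPase, was lost, at 5.93, 5.62 and 6.09 in PreGM GFP+ cells against 8.78, 8.36 and 8.45 in HSC GFP- cells. Ifi203, an interferon-induced nuclear protein, gave 8.60, 8.55 and 9.09 in PreGM GFP+ cells, against 10.82, 11.15 and 10.77 in HSC GFP- cells, 4.50-fold lower (adjusted p = 7.99e-05). Ifitm3, a relative of Ifitm1, fell to 11.42, 11.63 and 11.26 in PreGM GFP+ cells, against 12.10, 12.09 and 12.16 in HSC GFP- cells, 1.61-fold lower (adjusted p = 0.00271). Of 13 genes of MHC class I and antigen processing, 11 were kept, B2m, the shared light chain, among them, and 2 were called lower, of which neither was called without PreGM GFP+ array 1 or HSC GFP- array 1. Among 31 cytokine receptors, 2 were called higher and 4 lower, with a median difference of -0.13. The falls again include Flt3, part of the HSC GFP- gate. Ifngr1, the binding chain of the interferon gamma receptor, was 2.66-fold higher (adjusted p = 0.00311), at 10.77, 10.92 and 10.64 in PreGM GFP+ cells against 8.92, 9.29 and 9.88 in HSC GFP- cells. Il17ra, the receptor for interleukin 17, was 2.05-fold higher (adjusted p = 0.00563), but not called from the spread of the 6 arrays alone (adjusted p = 0.0675), which left 1 rise. Csf2ra and Il3ra, the receptor chains for GM-CSF and interleukin 3, were kept, with differences of -0.05 and 0.20.

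A few genes of division and growth were called higher. Of 31 G2 and M phase genes, 4 were called higher and none lower, with a median difference of 0.46. Cks2, a partner of the cyclin-dependent kinases, gave 10.59, 11.00 and 10.78 in PreGM GFP+ cells, against 8.85, 9.02 and 9.31 in HSC GFP- cells, 3.32-fold higher (adjusted p = 5.17e-06). Ccnb2, a mitotic cyclin, gave 10.39, 10.32 and 10.25 in PreGM GFP+ cells, against 8.21, 9.05 and 9.03 in HSC GFP- cells, 2.93-fold higher (adjusted p = 0.000776). Both were above the median signal in the stem cells, without overlap between groups. The list mean was 8.16, 8.17 and 8.45 on PreGM GFP+ arrays 1 to 3, against 7.52, 7.74 and 7.86 on HSC GFP- arrays 1 to 3. The count of 4 rises became 2 without PreGM GFP+ array 2 or 3 or HSC GFP- array 3. S phase genes were mostly kept, at 25 of 36, as were most genes present in both groups. Of the 36, 2 were called higher (1 without PreGM GFP+ array 2 or HSC GFP- array 3), with a median difference of 0.25. Pcna, the sliding clamp of replication, gave 11.91, 12.17 and 12.03 in PreGM GFP+ cells, against 12.27, 12.01 and 12.20 in HSC GFP- cells. This probe set, the brighter of 2, averaged 11.98 to 12.34 in all 8 groups. A signal so alike everywhere does not show that Pcna RNA was unchanged.

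Of 31 genes of ribosome biogenesis, 4 were called higher and none lower, 19 were kept, and the median difference was 0.36. All 31 differences were above 0, at most 1.22. Nip7, a factor of ribosome assembly, gave 9.33, 9.30 and 9.32 in PreGM GFP+ cells, against 8.34, 7.98 and 7.96 in HSC GFP- cells, 2.33-fold higher (adjusted p = 0.0055). The count was 2 without PreGM GFP+ array 2, HSC GFP- array 2 or HSC GFP- array 3. Of 28 mitochondrial genes, 2 were called higher and 1 lower. The rises, of Cycs and Phb2, were 0 in number from the spread of the 6 arrays alone, and 1 without PreGM GFP+ array 2 or 3 or HSC GFP- array 2 or 3. Cycs, cytochrome c, was 1.89-fold higher (adjusted p = 0.00175, and 0.0756 from the 6 arrays alone). Ppargc1a, a coactivator of mitochondrial genes, was below the median signal in PreGM GFP+ cells at 5.30 ± 0.14, and near it in HSC GFP- cells at 6.45 ± 0.16 (adjusted p = 8.5e-05). Of 25 genes of nucleotide and one-carbon metabolism limma called none, 5 had an unadjusted p under 0.05, and 19 were kept. Of 23 glycolysis and hypoxia genes, 2 were called higher and 2 lower, but no rise was called without any 1 PreGM GFP+ array or HSC GFP- array 1, and no fall without PreGM GFP+ array 1 or 2 or HSC GFP- array 1. Of 29 integrins and tetraspanins, 2 were called higher and 1 lower, with no rise called without PreGM GFP+ array 3 or HSC GFP- array 3 and no fall without HSC GFP- array 1. The rises were of Itgal and of the gate antigen gene Itga2b. Of 28 immediate early genes 1 was called, Zfp36, which encodes a protein that destabilises cytokine RNA, and it was lower by a log2 difference of -1.28.

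Detoxifying enzymes and transporters held falls on both sides of the median signal. Of 27 aldehyde dehydrogenases and glutathione transferases, 4 were called lower and none higher, with a median difference of 0.01. Mgst2, which conjugates glutathione to lipids, was lost, at 6.21, 6.12 and 5.99 in PreGM GFP+ cells against 7.87, 8.66 and 9.23 in HSC GFP- cells. Gstm1, a glutathione transferase, gave 7.29, 8.38 and 8.10 in PreGM GFP+ cells, against 10.15, 9.43 and 9.57 in HSC GFP- cells, 3.47-fold lower (adjusted p = 0.00369). Both sets of arrays were apart. Of 16 ABC and drug transporters, 3 were called lower and 1 higher, with a median difference of -0.16. Abcg2, the transporter behind the side population of stem cells, gave 7.55, 8.66 and 7.99 in PreGM GFP+ cells, against 9.35, 9.23 and 9.33 in HSC GFP- cells (2.35-fold lower, adjusted p = 0.00683, and 0.0643 without PreGM GFP+ array 1). Abcb4, a phospholipid transporter, was 3.76-fold higher (adjusted p = 1.14e-06), at 8.70, 8.38 and 8.85 in PreGM GFP+ cells against 6.49, 6.95 and 6.76 in HSC GFP- cells.

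Some of the largest differences lay outside the lists. Mc2r, the receptor for adrenocorticotropic hormone, appeared at 7.71, 7.75 and 7.41 in PreGM GFP+ cells, against 3.91, 4.35 and 4.19 in HSC GFP- cells (log2 difference in signal 3.47 ± 0.18, SE, adjusted p = 1.48e-11). Scin, the actin-severing protein scinderin, appeared at 8.88, 8.93 and 8.29 in PreGM GFP+ cells, against 5.35, 5.38 and 5.28 in HSC GFP- cells. Both were low and tight on the stem cell arrays. St8sia6, a sialyltransferase, appeared at 8.49, 8.06 and 8.61 in PreGM GFP+ cells, against 5.64, 5.78 and 5.62 in HSC GFP- cells. Aqp11, an aquaporin of internal membranes, appeared at 8.21, 9.24 and 7.86 in PreGM GFP+ cells, against 5.21, 6.25 and 5.63 in HSC GFP- cells. Ap3s1, a subunit of the AP-3 adaptor of granule sorting, was raised from a present level, at 10.37, 11.08 and 10.32 in PreGM GFP+ cells against 8.24, 7.95 and 7.27 in HSC GFP- cells, 6.83-fold (adjusted p = 4.7e-07). None of the 5 overlapped between groups, which their choice among the largest rises required.

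On the side of the falls, Myl10, a myosin light chain, was the largest, at 6.87 ± 0.19 in PreGM GFP+ cells and 10.84 ± 0.55 in HSC GFP- cells, a log2 difference in signal of -3.97 (adjusted p = 2.47e-08). Tfec, of the Mitf family of transcription factors, gave 5.97, 8.06 and 6.66 in PreGM GFP+ cells, against 9.77, 10.44 and 10.87 in HSC GFP- cells, a log2 difference of -3.46 (adjusted p = 3.6e-05). Both were separate between groups, as the choice of the largest falls required, though Tfec was spread among the PreGM GFP+ arrays. Adgrl4, an adhesion receptor also found on endothelium, was 6.94-fold lower yet still high, at 8.90, 8.90 and 9.19 in PreGM GFP+ cells against 11.74, 11.86 and 11.78 in HSC GFP- cells. Plxdc2, a plexin-related membrane protein, was 6.31-fold lower (adjusted p = 5.39e-07). The lost genes also included the adhesion molecule F11r, at 5.82, 5.80 and 5.88 in PreGM GFP+ cells against 8.51, 8.16 and 8.53 in HSC GFP- cells, the lipid enzyme Hacd4, at 6.12, 5.70 and 6.36 in PreGM GFP+ cells against 8.71, 8.61 and 8.50 in HSC GFP- cells, and the secreted protein gene Crispld1, at 6.46, 6.44 and 6.42 in PreGM GFP+ cells against 9.83, 9.12 and 8.84 in HSC GFP- cells. No PreGM GFP+ array exceeded the median signal for these 3, as the rule for lost genes requires. Of 23 stroma and endothelium genes, only Emcn, endomucin, which stem cells also express, was called, and it was lost (adjusted p = 0.000182). The mean of that list was 6.12 to 6.16 on PreGM GFP+ arrays and 6.21 to 6.25 on HSC GFP- arrays.

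The genes that appeared, chosen on PreGM GFP+ and HSC GFP- arrays alone, were then read in the other groups as a description. Of the 34, 29 had a mean above 6.61 in GMP GFP+ cells, 25 in PreMegE cells, 10 in GMP GFP- cells, 10 in PreGM GFP- cells, 7 in CLP and 5 in LMPP. Most thus had a mean at or below the median signal in the reporter-negative cells of the same gate. Car1 averaged 12.37 in PreMegE, 10.84 in GMP GFP+ and 6.47 in PreGM GFP- cells. Ms4a2 averaged 5.73 in PreMegE, 10.87 in GMP GFP+ and 5.24 in PreGM GFP- cells. The erythroid gene was thus near its PreGM GFP+ level of 12.01 in PreMegE, whereas the mast cell gene, at 8.96 in PreGM GFP+ cells, was not. Against PreGM GFP- cells, 181 genes (0.908%) were higher and 227 (1.14%) lower in PreGM GFP+ cells. Car1 was higher by 5.54 (adjusted p = 1.68e-10), Ms4a2 by 3.72 (adjusted p = 1.54e-08) and Gata1 by 1.75 (adjusted p = 2.36e-06), while S100a8 differed by -0.32 (adjusted p = 0.939) and Stom by 0.87 (adjusted p = 0.189). Mpo and Ms4a3, which were higher than in HSC GFP- cells, were lower than in PreGM GFP- cells. Their differences were -1.64 (adjusted p = 0.00033) and -1.28 (adjusted p = 0.0151). These comparisons share the PreGM GFP+ arrays with the one above.

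PreMegE cells differed from PreGM GFP+ cells in few genes, with 3 called higher (0.0150%) and 10 lower (0.0502%) of 19938 in PreMegE. Among genes described above, Ms4a2 was lower in PreMegE by -3.23 (adjusted p = 1.91e-06), Hdc by -1.75 (adjusted p = 1.17e-05), Fcer1a by -2.14 (adjusted p = 0.0442) and Lmo4 by -1.96 (adjusted p = 0.0029). The neutrophil granule gene Mpo was lower in PreMegE too, by -1.91 (adjusted p = 0.000993). F2r was higher by 0.90 (adjusted p = 0.0234) and Slamf1, part of the sort, by 1.32 (adjusted p = 0.0442). Car1, Mfsd2b, Kel, Klf1 and Gata1 did not pass that test, with differences of 0.36, 0.03, -0.51, -0.09 and -0.01. Of the 85 lost genes, 43 had a mean above the median signal in LMPP, 27 in PreGM GFP-, 25 in GMP GFP-, 22 in CLP, 18 in GMP GFP+ and 13 in PreMegE. Mecom averaged 7.49 in LMPP, 6.71 in PreGM GFP- and 6.72 in PreMegE. Mgst2 averaged 9.03 in LMPP, 8.94 in PreGM GFP- and 6.60 ± 0.81 (SD, n = 3) in PreMegE.

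**Figure D4:**
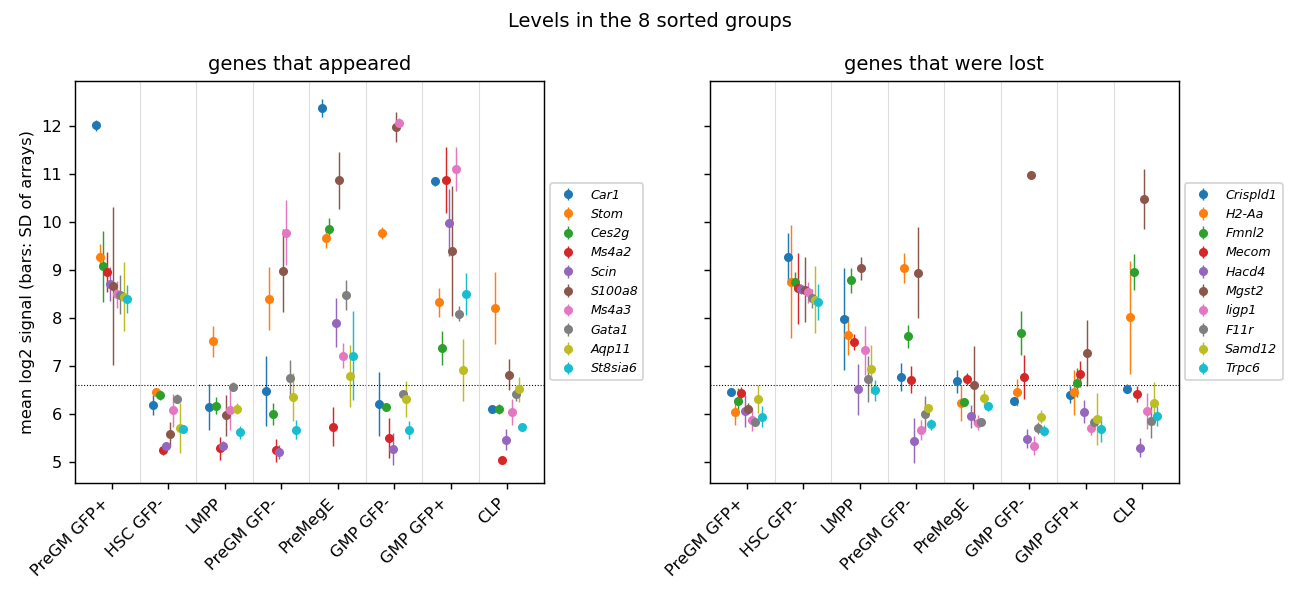
Mean log2 signal in each of the 8 sorted groups (error bars are the SD of 3 or 4 arrays) of the 10 appeared genes with the highest PreGM GFP+ mean (left) and the 10 lost genes with the highest HSC GFP- mean (right); the dotted line is 6.61. Car1 is high in PreGM GFP+, PreMegE and GMP GFP+ cells, and Ms4a2 is highest in GMP GFP+ cells at 10.87.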

How the data were processed

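RNA was hybridised to Mouse Gene 1.1 ST arrays, and the authors deposited a normalised log2 signal for each probe set. The submitters' processing notes name RMA and oligo, without versions or the base of the logarithm; base 2 is taken from the range of the values. Of 35556 probe sets, 21789 named 1 gene in the annotation used, that of the 1.0 ST array, and 1621 with several and 12146 with none were left out. A gene measured by more than 1 probe set (999 genes) was read from its brightest on average, leaving 19938 genes. Close relatives may share probes.

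limma 3.58.1 (R 4.3.3) fitted 1 coefficient per group to all 26 arrays. PreGM GFP+ minus HSC GFP- was tested with limma's moderated test and adjusted over all genes by Benjamini-Hochberg. On simulated data of 19938 genes, 79.0% of changes of 1 log2 unit and 93.0% of 2 log2 units were recovered, and 4.97% of calls were false. The simulation changed 100 genes by each size. It gave each gene independent normal noise of 1 spread in all groups, as the fit assumes, so it cannot test that assumption. The number of arrays limits the precision. The alternatives were the spread of the 6 arrays alone, each array left out, the replicate number as a block, array centring and weights, a filter on dim genes, another prior, the mean of probe sets, a Y-linked covariate, a higher present level and a minimum difference.

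Genes named are the 15 largest rises and falls without overlap of arrays, the 10 highest appeared and lost genes, and up to 6 called members per direction and 4 kept members of each list, clone identifiers and the like passed over. Gata1, sort markers, fate regulators, GATA partners and stem cell genes could be named whatever their result. Rhd, Rhag, Ermap, Aqp1, Blvrb, Prg2, Elane, S100a9, Ngp, Pf4, Gp9 and Dntt fall outside that rule and were chosen after their values were seen. The members and lists were chosen with earlier results of these data known.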

Additional observations from a re-analysis of the deposited data

How the results depend on the processing

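The main counts were 299 higher and 424 lower genes, with 34 appeared, 207 raised from a present level, 7398 kept, 180 lowered but present and 85 lost. With the spread of the 6 arrays alone these were 143 higher, 246 lower, 93 raised and 111 lowered but present. Weighting arrays by precision gave 493 higher and 349 raised. With a present level 1 log2 unit higher, 54 appeared, 113 were raised, 3240 kept and 71 lowered but present. A difference of at least 1 log2 unit left 134 higher and 253 lower. Leaving out 1 array at a time gave 178 to 243 higher, 269 to 367 lower, 31 to 40 appeared, 107 to 184 raised, 6909 to 7321 kept, 110 to 146 lowered but present and 79 to 92 lost; the lowest counts of higher, lower, raised and lowered genes came without PreGM GFP+ array 2, and without HSC GFP- array 3 there were 134 raised. With the replicate number as a block there were 310 higher and 421 lower genes; same-numbered arrays did not deviate together (correlations of -0.13, -0.14 and 0.03), so the numbers are not taken as a pairing. Median centring, the filter on dim genes, a trended robust prior and the mean of probe sets gave 272 to 330 higher and 398 to 435 lower genes, and the Y-linked covariate 353 and 478. Of 127 called named genes, 72 lost their call in none of the up to 14 alternative settings that tested them (Ppargc1a is left out by the dim filter), and none of the 3370 values of named genes under the alternatives turned its direction as a called gene. Array weights also gave 8 rather than 4 higher genes for both the G2 and M phase and the ribosome lists. The causes of these shifts were not tested. Signals under 6.61 limit what can be said of low genes.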
